A study of Drosophila melanogaster with 3 samples.

Results

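The genes kirre, CG1677 and sbb are 3 long genes of Drosophila melanogaster that were chosen by their number of reproducible Senseless-GFP peaks, from chromatin immunoprecipitation and sequencing of whole embryos. They are 3 of 13945 annotated protein-coding genes, and together they hold 44 of the 3811 peak summits in the list that the submitters kept as reproducible between replicates. A summit is the position of highest signal within a peak, and a summit was given to a gene when it lay in the gene body or within 5 kb of either end. Since the counts chose the genes, the counts are given as a description and no test was made of them. All samples came from 1 group of 3 biological replicates: mixed-sex embryos aged 4 to 14 h of a transgenic strain that carries the Senseless protein with GFP at its C terminus, precipitated, per the description in the labels, with an antibody against GFP. The antibody field of the labels names sens instead, and the files do not settle which holds. In the labels, the field for age is not a possible embryo age, so the hours come from the source description. There was no second genotype, treatment or time, and the deposited notes name no control sample for the peak lists used. Whole embryos mix all cell types, so which cells held a given peak was not measured, and no expression values accompany the peaks. The lists give no read counts, so the depth behind each peak is unknown.

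Senseless is a zinc finger protein that binds DNA and acts in the precursors of sensory organs, where it can repress or activate genes. The gene kirre, also called dumbfounded, encodes an adhesion protein of the immunoglobulin superfamily on muscle founder cells, where it attracts fusion-competent myoblasts; its paralog rst (roughest) lies within the annotated body of kirre and acts in part redundantly with it. The gene sbb, known as scribbler or brakeless, encodes a nuclear protein that acts as a transcriptional corepressor. CG1677 encodes an uncharacterised protein in the annotation and no role is given to it here. Long introns of fly genes often hold whole other genes as well as enhancers, so a summit inside a long gene can lie nearer to the start of another gene than to its own.

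The sequences at the strongest summits show the stretches of DNA that the values below describe. Each is the summit base with 50 bases on either side, from the RefSeq FASTA of the dm6 genome, plus strand. For kirre and CG1677, the 3 strongest summits are given first, followed by the strongest summit that holds AAATCA, the core letters of the Senseless site, on either strand. Those last windows were chosen after the values were seen. Capitals mark AAATCA or its reverse complement TGATTT. Summits are numbered along each gene in its direction of transcription.
kirre summit 17, chrX:3097157-3097257: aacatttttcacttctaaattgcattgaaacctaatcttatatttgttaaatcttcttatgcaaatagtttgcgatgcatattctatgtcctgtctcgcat
kirre summit 3, chrX:2786693-2786793: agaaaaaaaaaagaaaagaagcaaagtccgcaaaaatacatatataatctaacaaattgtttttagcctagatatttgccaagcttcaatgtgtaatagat
kirre summit 4, chrX:2787442-2787542: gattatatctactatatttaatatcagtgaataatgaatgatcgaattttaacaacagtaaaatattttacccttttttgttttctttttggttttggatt
kirre summit 2, chrX:2744200-2744300: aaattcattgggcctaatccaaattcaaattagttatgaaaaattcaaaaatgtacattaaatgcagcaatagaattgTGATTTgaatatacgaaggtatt
CG1677 summit 2, chrX:7337011-7337111: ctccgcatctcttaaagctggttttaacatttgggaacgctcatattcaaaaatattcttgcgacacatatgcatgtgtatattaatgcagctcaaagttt
CG1677 summit 3, chrX:7336274-7336374: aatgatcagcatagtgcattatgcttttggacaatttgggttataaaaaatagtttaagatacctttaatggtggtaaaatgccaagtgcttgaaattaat
CG1677 summit 5, chrX:7324999-7325099: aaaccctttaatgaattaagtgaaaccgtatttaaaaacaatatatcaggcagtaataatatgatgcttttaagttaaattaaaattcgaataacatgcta
CG1677 summit 9, chrX:7301531-7301631: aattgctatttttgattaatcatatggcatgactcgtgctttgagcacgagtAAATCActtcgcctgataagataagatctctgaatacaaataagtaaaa
None of the 6 strongest windows holds the core letters. The windows are rich in A and T, from 21.8% GC at summit 4 of kirre to 35.6% GC at summit 2 of CG1677. None overlaps an annotated exon.

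The highest count of any protein-coding gene was that of kirre (FBgn0028369), with 18 summits. CG1677 (FBgn0029941) came next with 15. With 11 summits, sbb (FBgn0285917) was tied with 3 other genes, among them Hr4, a nuclear receptor gene of 66.0 kb, and ush, the gene of a zinc finger cofactor of GATA factors, of 64.3 kb. The genes just below held 10 summits. The median protein-coding gene held 0 summits, and 42.4% of all 13945 genes held at least 1. Among the 307 protein-coding genes of 50 kb or more, the median was 1 summit, and 115 of them had none.

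Per length the 3 genes differed from each other. The density was 0.445 summits per 10 kb in kirre, 1.11 in CG1677 and 1.23 in sbb, against 0.285 over the 6 chromosome arms and a median of 0.142 over the genes of 50 kb or more. Among those 307 long genes, 48 had a higher density than kirre, 4 a higher one than CG1677 and 3 a higher one than sbb. Thus kirre led the count and not the density, while CG1677 and sbb stood near the top of both. The 3 genes nearest in length to each of them held from 0 to 4 summits. CG17684 (396.0 kb), lovit (434.0 kb) and DIP-lambda (379.1 kb, an immunoglobulin-superfamily gene), the nearest to kirre in length, held 0. Near CG1677 in length, dpr21 (124.5 kb) and CG46244 (125.0 kb) held 0 and Fur1 (125.6 kb), a furin-type protease gene, held 4. Near sbb in length, pros (79.2 kb), which encodes a homeodomain protein of neural precursors, held 3, Hs6st (79.2 kb) held 1 and Glut1 (79.7 kb) held 0. Some other genes of such lengths, picked out after their counts were seen, held more: RapGAP1 (81.2 kb) held 10, and Svil (121.6 kb) and hth (132.0 kb) held 9 each.

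**Figure D1:**
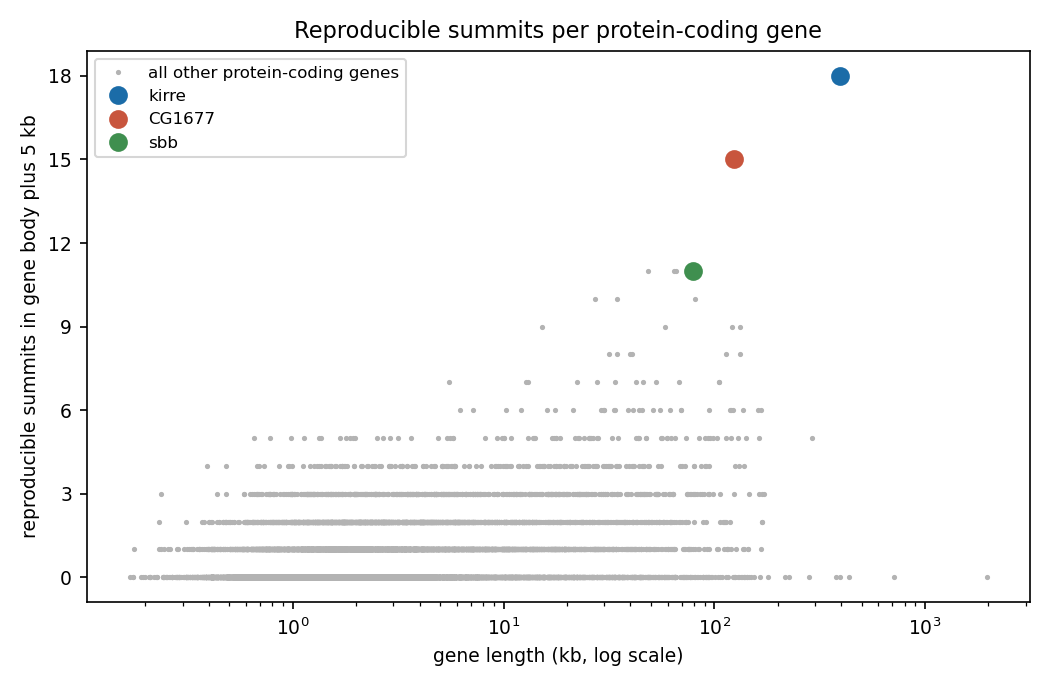
Reproducible summits in the gene body plus 5 kb (y axis) against gene length in kb on a log scale (x axis) for 13945 protein-coding genes, 1 point a gene. The 3 coloured points are kirre with 18 summits, CG1677 with 15 and sbb with 11, and many genes of the same length lie at 0.

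The kirre gene spans chrX:2740384-3134532 on the plus strand (dm6, 394149 bp), with 6 annotated transcript starts. Its 18 summits fell into separate groups along this length. Summits 1 and 2 lay 2.87 and 3.87 kb from the first start, and their nearest start was that of Syx4, a syntaxin gene that overlaps the 5′ end of kirre on the other strand, 298 and 174 bp upstream of its annotated starts. Summits 3, 4 and 5 lay together between 46.4 and 48.3 kb, inside the gene CG32795, with signals of 474.4, 398.5 and 144.9. The signal is the authors' own value for a peak, and its scale is not given. Then followed 185.0 kb with no reproducible summit, 46.9% of the length of the gene, although 18 protein-coding genes lie in that stretch.

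This stretch ended at summit 6, which lay 107 bp inside the start of rst with a signal of 165.3. The pooled list of all replicates had 21 peaks in the stretch, or 1.13 per 10 kb against 1.98 over the X chromosome. The strongest of them ranked 5571 of 28357 with a signal of 107.6. Of the 3811 strongest peaks of each replicate, 1 of replicate 1 lay there and 0 of replicates 2 and 3. Across the reproducible list as a whole, 80 gaps between neighbouring summits were longer than 185.0 kb.

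The other 12 summits of kirre came after rst. They began 245 kb from the first start, and 10 of them lay in 1 intron of 133.8 kb. The strongest of the gene was summit 17, 357 kb along it, with a signal of 736.7 and rank 154 of 3811. It ranked 211, 184 and 108 in replicates 1, 2 and 3, so it was high in each of them. It lay 2343 bp upstream of the start of a short form of kirre. Counted from the start at 2989051, which begins a form of 143.7 kb, 7 summits lay upstream and 11 downstream. Relative to the starts of the 3 short forms at the 3′ end, 17 summits lay upstream and 1 downstream. The form of 4.15 kb and the forms of 33.2 kb had no summit within their spans. No start of kirre itself had a summit at 500 bp or less: the distances from its 6 starts to the nearest summit ran from 2343 to 8273 bp. Summit 18 lay beyond the 3′ end, 2042 bp inside N, which encodes the receptor Notch, with a signal of 220.5.

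CG1677 spans chrX:7281089-7405797 on the minus strand (124709 bp), with 3 annotated starts. Its 15 summits lay in the later part of the gene. The first 67.0 kb after the first start held no reproducible summit, 10 pooled peaks of which the strongest ranked 12807, and none of the 3811 strongest peaks of any replicate. From there on, 14 summits followed within 46.8 kb, all in 1 intron of 73.9 kb that also contains other genes. Neighbouring summits lay a median of 1.92 kb apart, from 500 bp to 14.8 kb, and 7 of the 14 gaps were under 2 kb.

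The strongest summit of CG1677 was summit 2, with a signal of 906.0, the highest of the 44. It ranked 96 in the reproducible list, and 109, 97 and 84 in replicates 1, 2 and 3. It lay 291 bp upstream of CBP, a nested gene whose symbol is not that of the acetyltransferase nejire. Summits 1, 3 and 4 lay 1082 bp inside CBP and 1028 and 1736 bp upstream of it. Their signals of 178.4, 516.8 and 166.3 were all lower than that of summit 2. Summit 5 lay 835 bp inside Dok, an adaptor protein gene, with a signal of 410.2, and summit 6 had a signal of 408.1 inside Atg5, an autophagy gene.

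Summits 7, 8 and 9 lay 763, 1926 and 6358 bp upstream of brk, which encodes the repressor brinker of Dpp target genes, with signals of 280.0, 140.0 and 224.3. Their ranks were 1242, 3799 and 1828, so that summit 8 was near the end of the list. Summits 10 to 14 lay 736 to 8161 bp upstream of unc-119, with signals from 142.7 to 362.8. For 14 of the 15 summits the nearest start was that of another gene. The exception, summit 15, lay beyond the 3′ end of CG1677, in an intron of the noncoding gene lncRNA:CR44357, which shares the first start of CG1677 and runs past it. Only the transcript of 124.7 kb contained summits, 14 of them. The short forms of 3.79 and 5.11 kb contained none, and all 14 lay upstream of their starts.

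The sbb gene spans chr2R:18278198-18357296 on the minus strand (79099 bp), with 2 annotated starts. It was the only one of the 3 genes with a summit at a start of its own. Summit 1 lay 136 bp upstream of the first start, with a signal of 570.7, the highest of the gene. Its rank was 279 in the reproducible list and 302, 210 and 545 in replicates 1, 2 and 3. Summits 2 to 7 followed within the first 22.0 kb, with signals of 363.4, 146.2, 248.8, 528.4, 189.5 and 391.3 in that order. For these 7 summits the nearest annotated start of any gene was that of sbb.

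After a gap of 27.7 kb, or 35.0% of the gene, 3 more summits lay in the body of sbb. Summits 8 and 9 had signals of 435.7 and 280.6 and lay near the nested gene CG14505, 3629 bp upstream and 1062 bp inside of its start. Summit 10, with a signal of 204.7, lay 399 bp inside an annotated start of the nested gene CG14502. Summit 11 lay between genes beyond the 3′ end, with a signal of 164.4, and its nearest start was that of Ote, which encodes a protein of the inner nuclear membrane, 3642 bp away. Unlike the long gap of kirre, the gap of sbb was dense in weaker peaks: it held 19 pooled peaks, or 6.86 per 10 kb, the strongest at rank 3841 with a signal of 139.3, just below the lowest signal of the reproducible list at 139.8. The forms of sbb that begin at the second start, 68.5 kb into the gene, contained no summit.

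**Figure D2:**
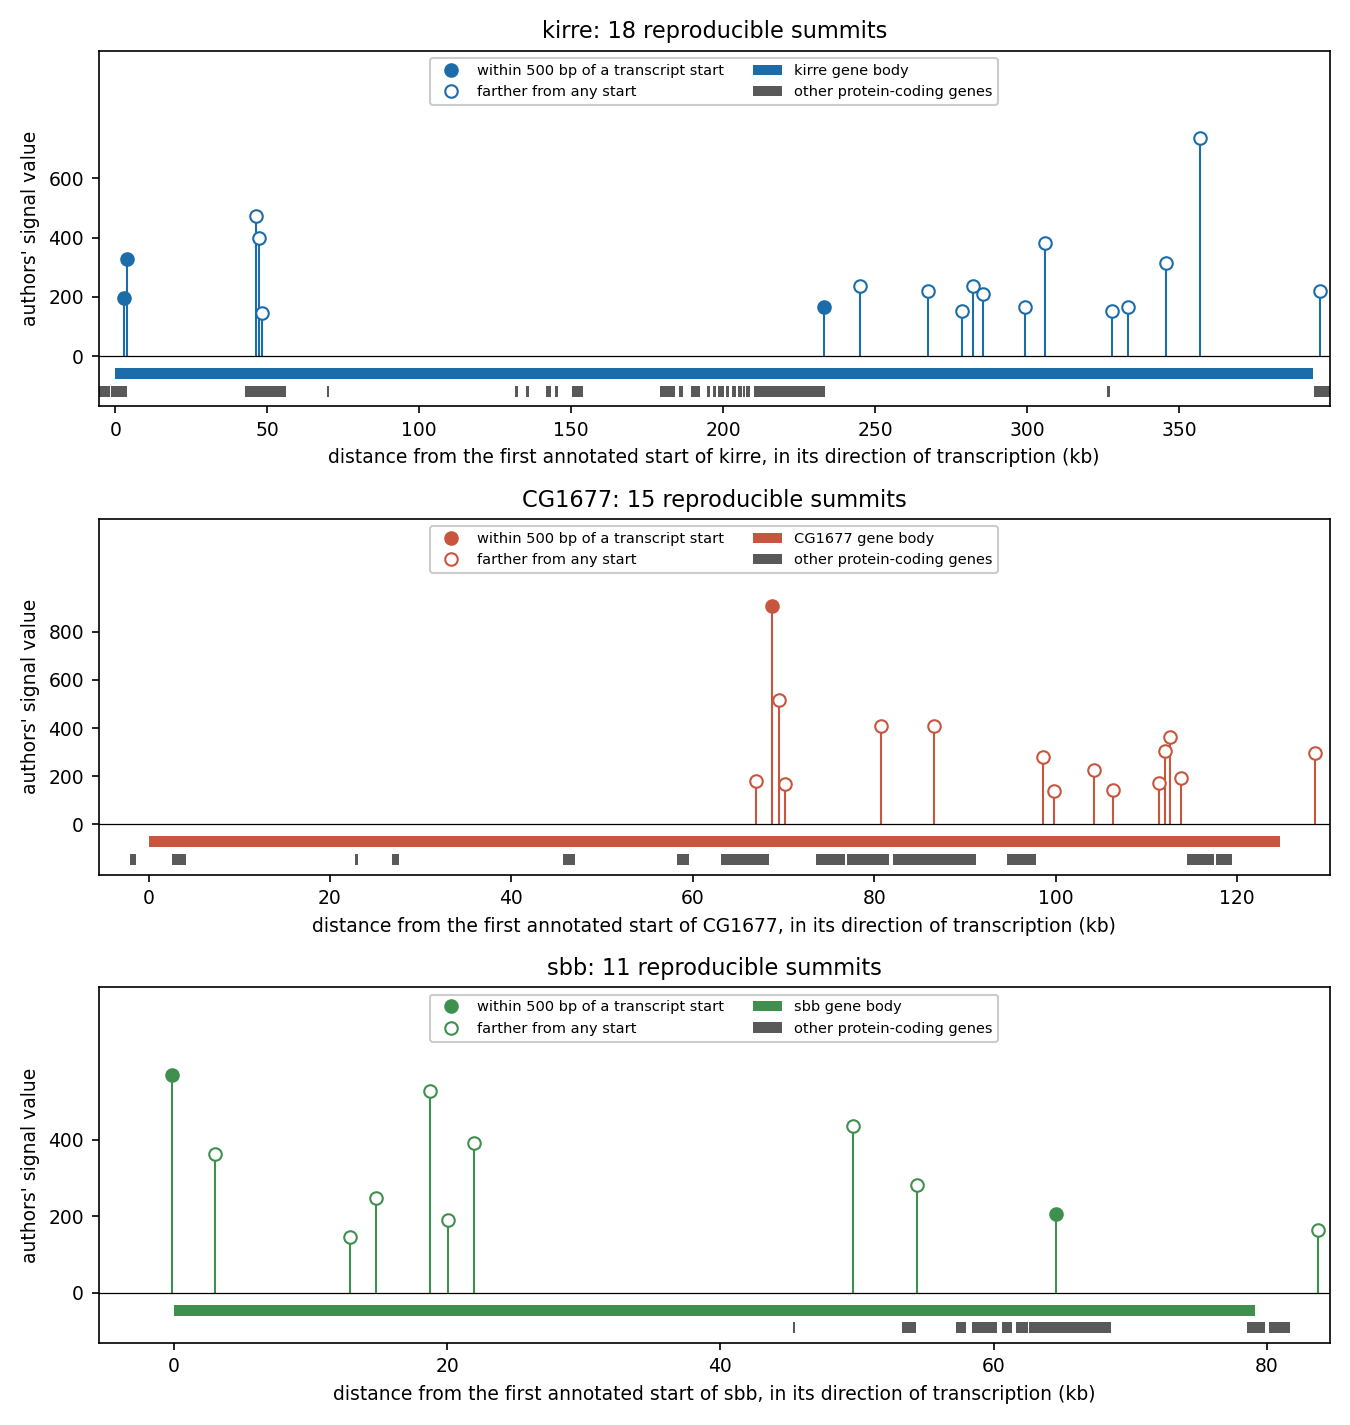
Signal of each reproducible summit (y axis, the authors' value) against its distance in kb from the first annotated start of kirre, CG1677 and sbb (x axis). Filled points are within 500 bp of a transcript start and open points are farther away. The coloured bar is the gene body and the grey bars are other protein-coding genes. The empty stretches are 185.0 kb in kirre, 67.0 kb at the start of CG1677 and 27.7 kb in sbb.

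By place, the 44 summits were mostly intronic. An intron held 37 of them (84.1%, exact 95% interval 69.9 to 93.4%), against 35.3% of all reproducible summits. At 500 bp or less from any transcript start were 6 (13.6%, exact interval 5.17 to 27.4%), against 48.7% of all. The interval covers counting error over summits only. Long genes were chosen, and most of their length is intron. The longest forms have 5.98 kb of exon in 393.7 kb (kirre), 4.08 in 124.7 (CG1677) and 9.82 in 79.1 (sbb). These shares and the distances below thus follow in part from the choice of genes, and no share over other long genes is given here. The 6 were the pair at Syx4 and those at rst, CBP, CG14502 and sbb. The median distance to the nearest start was 2810 bp for the 44 and 539 bp for all. Beyond 10 kb from any start lay 12 of the 44 (27.3%, exact interval 15 to 42.8%), against 5.98% of all. All of these were in kirre and sbb. In CG1677 the largest distance to a start was 8161 bp, at summit 10. None of the 44 lay in an exon of its own member gene.

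Most other genes in and beside the 3 genes had no summit at their start. Around kirre, 25 other genes start in the gene body plus 5 kb, and 2 of them had a summit at 500 bp or less, namely Syx4 and rst. In CG1677 this held for 1 of 15, namely CBP, and in sbb for 1 of 10, namely CG14502. Over all 18164 genes of any biotype, 13.7% had a summit that close to a start of their own. Where only summits found among the strongest peaks of all 3 replicates were kept, 2 of these 4 genes had one.

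Spacing varied between the genes. The median gap between neighbouring summits was 11.2 kb in kirre, 1.92 kb in CG1677 and 4.32 kb in sbb. Over the 41 gaps of all 3 genes it was 5.03 kb, and over the 3805 gaps of the whole list 12.5 kb. Gaps under 2 kb made up 13 of the 41 (31.7%) and 14.7% of all. The shortest, of 500 bp, separated summits 12 and 13 of CG1677. Since the genes were chosen for many summits, these gaps are a description. Over the 29 summits found among the strongest peaks of all 3 replicates, the median gap was 11.2 kb, and with the same filter on 2 replicates it was 7.86 to 11.2 kb.

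All 44 summits lay inside a peak of every replicate list. Nearly all of the 3811 reproducible summits did so too: 3785, 3799 and 3793 in replicates 1, 2 and 3. In replicates 1, 2 and 3, 33, 40 and 39 of them lay in one of the 3811 strongest peaks, which is 84.8% ± 8.59 (SD, n = 3), against 84.4% ± 2.61 for all reproducible summits. Replicate 1 held the fewest, at 75.0%, against 90.9% in replicate 2 and 88.6% in replicate 3. Among the strongest of all 3 replicates were 29 of the 44 (65.9%, exact interval 50.1 to 79.5%), against 64.3% of all, so the summits of these genes recurred about as often as others. By gene these were 11 of 18 in kirre, 11 of 15 in CG1677 and 7 of 11 in sbb.

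The ranks of single summits differed between replicates. Summit 5 of kirre, of rank 3601, ranked 12193, 3813 and 3591 in the 3 replicates, and it was the weakest of the 44 in replicate 1. Summit 4 of sbb, of rank 1527, ranked 3535, 1009 and 1492. Summit 6 of CG1677, of rank 617, ranked 666, 638 and 630. Spearman's rank correlation over the 44 sites was 0.82 between replicates 1 and 2, 0.80 between 1 and 3 and 0.86 between 2 and 3. Over 3773, 3769 and 3782 sites of the whole reproducible list it was 0.73, 0.67 and 0.73 in the same order. The 44 sites were all selected from the same replicates and lie in 3 genes, so the values are a description.

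**Figure D3:**
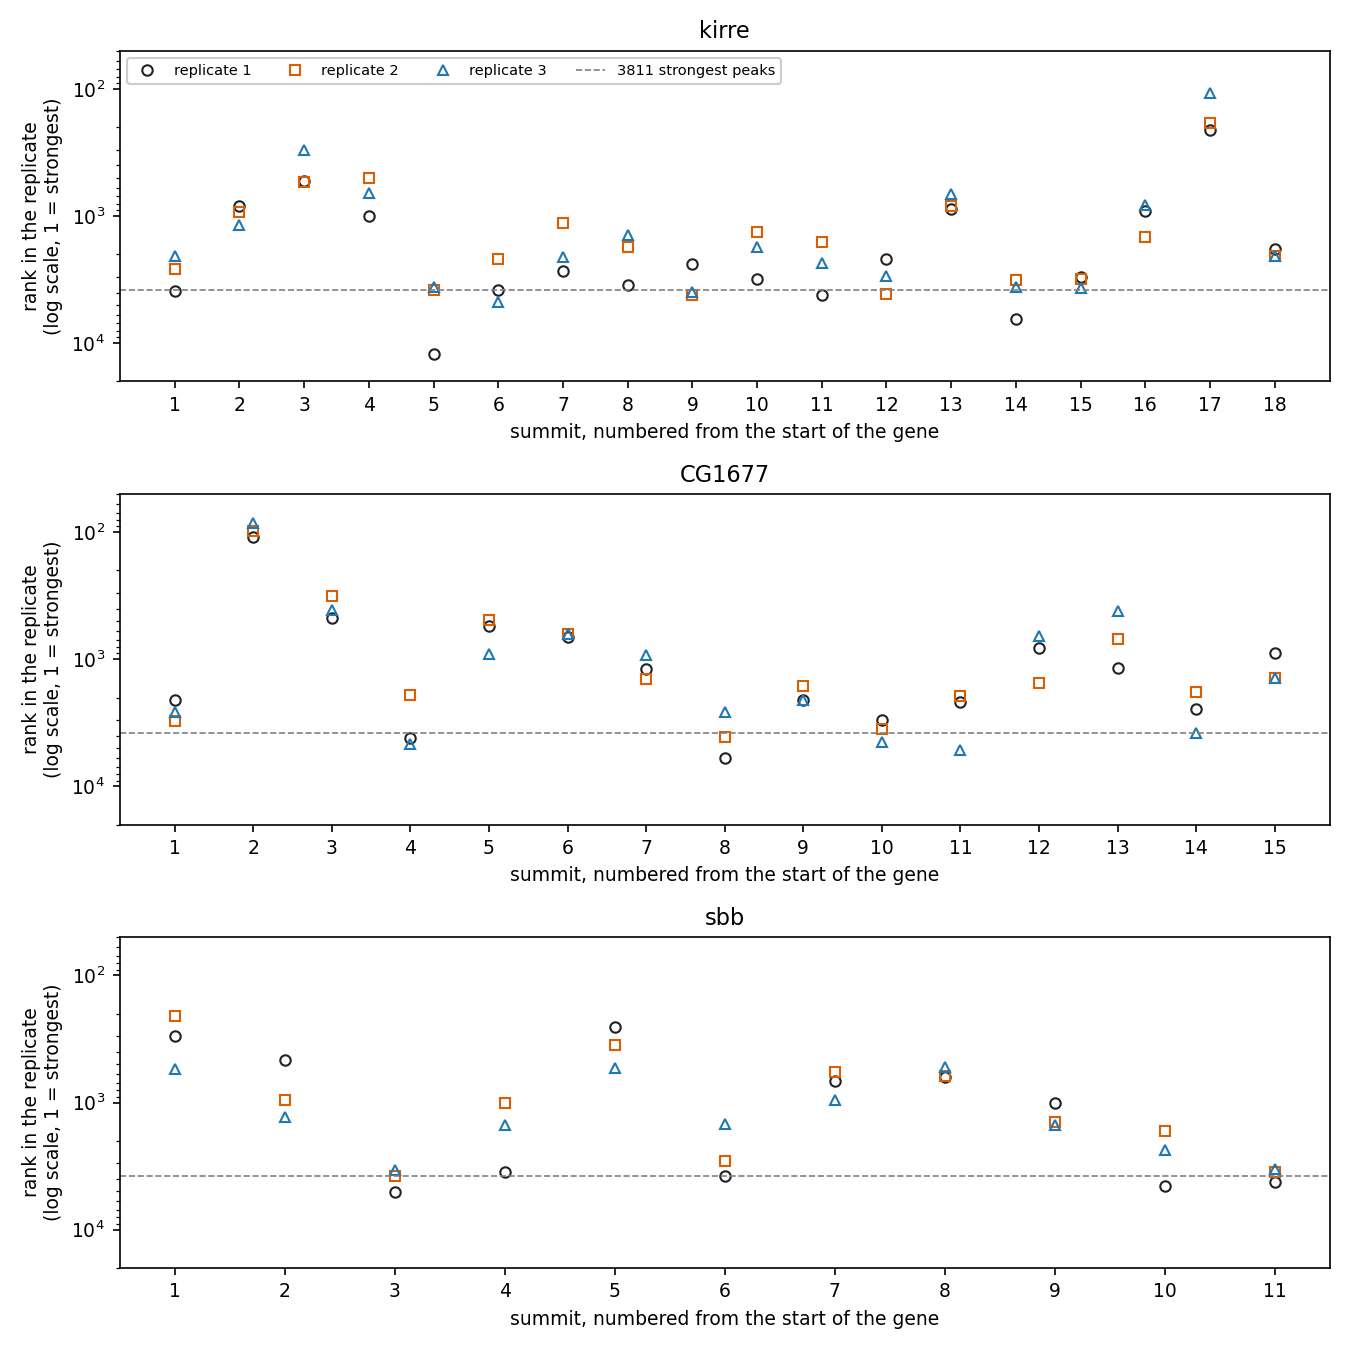
Rank of each of the 44 summits in replicates 1, 2 and 3 (y axis, log scale, 1 the strongest) by its number along kirre, CG1677 and sbb (x axis). The dashed line marks rank 3811. Summit 17 of kirre and summit 2 of CG1677 lie between ranks 84 and 211 in all 3 replicates, and the lowest point is summit 5 of kirre in replicate 1, at rank 12193.

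The counts were also taken in each replicate from its 3811 strongest peaks. By this count kirre held 15, 16 and 17 (16.0 ± 1.0, SD, n = 3), CG1677 held 14, 16 and 13 (14.3 ± 1.53) and sbb held 9, 13 and 13 (11.7 ± 2.31). In replicate 2 kirre and CG1677 were level, in replicate 3 CG1677 and sbb were level, and in no replicate was the order of the 3 genes reversed. In replicate 1, 6 genes had more summits than sbb, kirre and CG1677 among them. Of the reproducible summits, those found among the strongest peaks of all 3 replicates numbered 11 in kirre, 11 in CG1677 and 7 in sbb. The same filter with 1 replicate left out gave 11 to 14, 11 to 13 and 7 to 11. A filter that asks for fewer replicates cannot give a lower number.

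Most peaks of the pooled list in these genes did not reach the reproducible list. The pooled list held 102 peaks in kirre, of which 17.6% were reproducible, 52 in CG1677 (28.8%) and 57 in sbb (19.3%), against 13.4% of all pooled peaks. Since the genes were chosen by their reproducible summits, shares above 13.4% follow in part from the rule and are a description. The full replicate lists held 84, 98 and 90 peaks in kirre (90.7 ± 7.02, SD, n = 3), 54, 53 and 37 in CG1677 (48.0 ± 9.54) and 50, 65 and 42 in sbb (52.3 ± 11.7). Per 10 kb, pooled peaks numbered 2.52 in kirre, 3.86 in CG1677 and 6.40 in sbb, against 2.12 over the 6 arms. The strongest pooled peak of CG1677 outside the reproducible list ranked 3823 with a signal of 139.6 and lay 10 bp inside brk. In kirre the strongest such peak ranked 3921 with a signal of 137.1, 4385 bp upstream of rst. A pooled peak 330 bp upstream of N ranked 4891 with a signal of 118.1.

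GC content was low at the summits and higher beside them. The median over the 44 windows, each reaching 50 bp to either side of the summit, was 31.7%, from 20.8 to 50.5%, and it was 31.7% within each of the 3 genes. Windows of the same size centred 500 bp to each side had a median of 41.8%. Of the 44 summits, 38 (86.4%, exact interval 72.6 to 94.8%) had a lower GC content than the mean of their 2 flanks, against 77.9% of all reproducible summits. The medians over all summits were 32.7% at the summit and 43.6% beside it. The summit with the highest GC content was summit 18 of kirre, inside N, at 50.5% against 41.6% beside it.

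**Figure D4:**
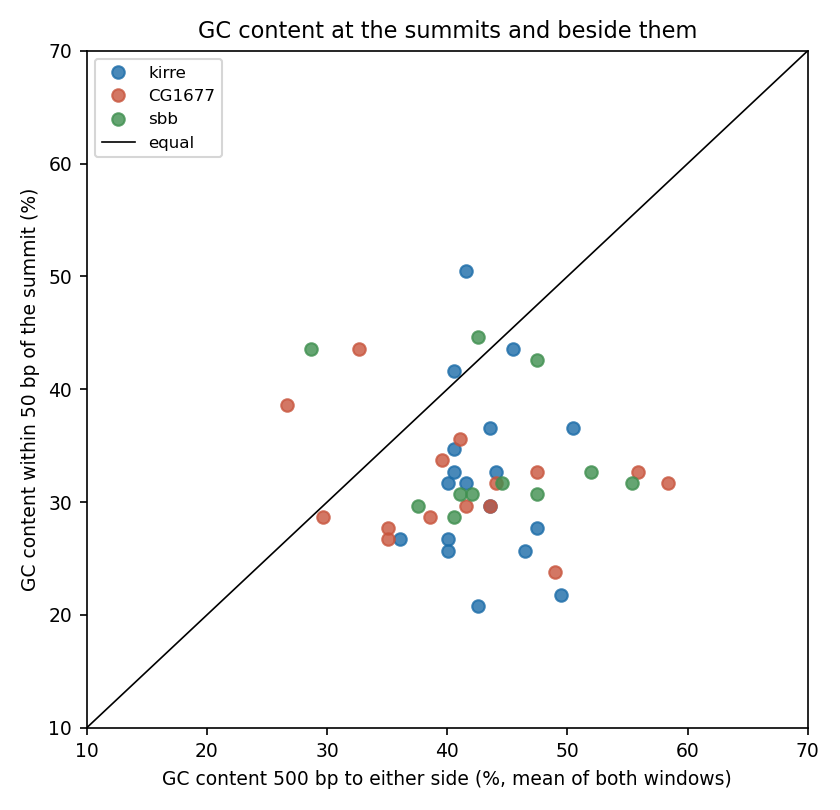
GC content in percent within 50 bp of each of the 44 summits (y axis) against the mean GC content of the windows 500 bp to each side (x axis), coloured by gene. The line marks equal values, and 38 of the 44 points lie below it.

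The letters AAATCA, or their reverse complement, were present in the same windows at 7 of the 44 summits (15.9%, exact interval 6.64 to 30.1%), against 14.2% of all. They were at 3 summits of kirre, 3 of CG1677 and 1 of sbb. In the flanking windows of the 44 they were present in 16 of 88 (18.2%), against 9.91% of the flanks of all summits. The share at the summits of these genes was thus not above that of their own flanks, and a match is a description of letters only. Summits 8, 9 and 10 of CG1677, which follow each other upstream of brk, all held the letters, with ranks of 3799, 1828 and 3698, as did summits 10 and 11 of kirre with ranks of 1672 and 2054. The strongest summits with the letters were summit 5 of sbb, of rank 351, and summit 2 of kirre, of rank 935.

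By signal, the 44 summits spanned most of the list. The median signal was 236.7, from 140.0 to 906.0, against 219.7, from 139.8 to 3051, for all reproducible peaks. Among the 1905 strongest of the list were 25 of the 44 (56.8%, exact interval 41.0 to 71.7%). The interval includes the share of all reproducible summits, which is 1905 of 3811 by construction. The 25 were 9 of kirre, 9 of CG1677 and 7 of sbb. The median rank was 1899 in kirre, 1242 in CG1677 and 1237 in sbb.

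Genes that act with kirre in cell adhesion and myoblast fusion were counted in the same way. Of its adhesion partners rst, sns and hbs, rst had 1 summit and sns and hbs had none. That summit is summit 6 of kirre, 1 of the 18 by which kirre was chosen. It is counted again below, as rst is also listed for myoblast fusion. Of 17 genes of myoblast fusion, 8 (47.1%) had a summit in the gene body plus 5 kb, against 42.4% of all protein-coding genes. The strongest were at mbc, which encodes an exchange factor for Rac, with 3 summits and a highest signal of 579.2 at rank 273, and at siz, an exchange factor for Arf proteins, with 4 summits and a highest signal of 490.4 at rank 413. The single summit of Hem, a subunit of the SCAR actin regulatory complex, had a signal of 461.3 and lay 156 bp upstream of the start of IleRS. The scaffold gene rols had 5 summits, the most of the 17, with a highest signal of 311.5 at 455 bp upstream of its start.

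Of 7 genes of transcriptional corepressors, the class to which sbb belongs, 5 (71.4%) had a summit, against the same 42.4%. Gug, the fly Atrophin, had 3 summits with a highest signal of 1095 at rank 53, 7669 bp inside the gene. The Groucho gene gro had 2, the stronger with a signal of 759.5 at rank 145, 136 bp upstream of its start. Smr had 3 with a highest signal of 524.2, and ebi had 3 with a highest signal of 471.0, the latter 127 bp upstream of AP-2alpha. CtBP and CoRest had none. With 7 genes the share is a description, and the list was drawn up with earlier results of these peaks known. The 42.4% is over genes of every length, and neither this list nor that of myoblast fusion was matched for length. Of the 307 genes of 50 kb or more, 115 had no summit.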

How the data were processed

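Chromatin was sonicated to 200 to 800 bp, per the labels. The authors deposited 5 peak lists on dm6 in narrowPeak format: 1 for each of 3 replicates (30000, 30000 and 27681 peaks), 1 pooled (28357) and 1 optimal IDR list (3811), which holds exactly the strongest pooled peaks. Peaks were thus called per sample and on pooled samples. The caller was not given in the sources used here, nor was the aligner. The deposited signal of a peak is a score of unknown scale. The deposited −log10 q-value was not used to select peaks, and the deposited summit offset gave each position. Lists on dm3 were not used, as no position was converted between builds. Depth is unknown, so intervals cover counting error over summits only.

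Genes came from Ensembl release 115 (dm6), without insertions of transposable elements, and the genome from RefSeq; gene spans of the 3 genes were the same in both. A summit was near a start within 500 bp of any annotated transcript start, and any other summit took the first class that held it: untranslated or coding exon, other exon, intron, intergenic. A summit was present in a replicate when it lay inside a peak of it. Exact intervals are Clopper-Pearson (scipy 1.17.1, Python 3.11.15, pandas 2.3.3, numpy 2.4.6). Counting was tested on simulated data.

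The genes and lists were chosen with earlier results of these data known. The text names genes with a start within 500 bp of a summit, those nearest to the 3 strongest summits of each gene, the 3 next by count, the 3 nearest in length, and up to 4 partners by rank; other genes (N, brk, unc-119, Atg5, Ote, lncRNA:CR44357, RapGAP1, Svil, hth) were named after their values were seen. One gene that the rule would name is not reported here. With 1 group, no test between conditions was made. Alternatives changed the territory, list, window, replicates and merging.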

Additional observations from a re-analysis of the deposited data

How the results depend on the processing

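Of 76 alternative values, 54 stayed within the spread or within 1.5 times the count reported. The 54 include values that could not move: merging joined only summits closer than 500 bp, and the smallest gap was 500 bp. They also include values with 1 replicate left out, which are no test, as said below. Among the 1905 strongest peaks of the list, kirre held 9 summits, CG1677 9 and sbb 7, and the median spacing was 11.2 kb, by construction with fewer summits. Keeping the summits found among the strongest peaks of all 3 replicates, a filter added after seeing the data, gave 11 for kirre, 11 for CG1677, 7 for sbb, a spacing of 11.2 kb and 2 other genes marked at their start. The same filter without 1 replicate gave 11 to 14, 11 to 13, 7 to 11, 7.86 to 11.2 kb and 2 to 3. Counts under this filter cannot fall when a replicate is left out, so the effect of leaving 1 out was not tested. The share among the strongest of the remaining replicates was 68.2 to 81.8%. Calling was not repeated without a replicate. Among the strongest of all 3 replicates were 45.5% with the 1905 strongest peaks per replicate, 97.7% with 2 times the reported number and 100% with the full lists, again by construction. Other genes marked numbered 2 within 250 bp and 9 within 1000 bp. A wider window cannot give fewer, and the share over all genes is given here at 500 bp only. The share of summits near a start ran from 6.82 to 25% and the median GC content from 30.7 to 32.8% over their alternatives. Counting starts of transposable elements, also added after seeing the data, gave 15.9% near a start. No paired analysis was possible because there is only 1 group. Depth cannot be read from the lists, and a missing summit means only that no reproducible peak was called there.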
